A study of Mus musculus with 2 samples.

Results

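Genes of voltage-gated and ligand-gated ion channels were examined in tumours of Colon26, a mouse colon carcinoma cell line. The genes were chosen by symbol, namely those that begin with Kcn, Scn, Cacn, Clcn, Trpa, Trpc, Trpm, Trpv, Gria, Grid, Grik, Grin, Gabr or Chrn, with a digit or subunit letter where the family name needs one. Of 183 such genes with a probe on the array, 129 had a value on both arrays, out of 13506 named genes measured on both. Each of the 129 was read by 1 probe. Liver metastases and primary tumours came from Balb/c mice that had received cultured Colon26 cells under the lining of the rectum, and no further treatment is given in the labels. The sources used here do not give the host's age, or how many animals stand behind a sample. Each of 2 two-colour arrays held 1 liver metastasis, labelled with Cy3, and 1 primary tumour, labelled with Cy5, and both arrays ran with the same dye orientation. The metastases and tumours of array 1 and array 2 were separate biological replicates.

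The measured value is the log ratio of the 2 channels, taken here as log2. No source used here names the tissue in the numerator, so a gene is said to lie on the positive or on the negative side, and neither side is assigned to the metastasis or to the primary tumour. A bias of a probe towards 1 dye enters its ratio on each array alike and cannot be told apart from a difference between the tissues. Per the labels, RNA came from Colon26 cells in the tumours and metastases, and no step that parts them from host cells is given, so fewer cells of a type and less RNA per cell cannot be told apart either. The file holds ratios and no intensities, so the level of a channel in either tissue is unknown. Precision is limited by there being only 2 arrays.

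Ion channels are membrane proteins that let ions pass when a gate opens. Voltage-gated channels open when the membrane potential changes, and ligand-gated channels open when a transmitter such as glutamate, GABA or acetylcholine binds. Most are built from a pore-forming subunit and auxiliary subunits that set its gating and its transport to the surface. They are best known from nerve and muscle, and epithelial, endothelial, immune and tumour cells also use them to set membrane potential, cell volume and calcium entry.

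Most of the 129 channel genes lay close to 0, and a small number lay far from it. Their median ratio was -0.06, with -0.07 on array 1 and -0.09 on array 2, against -0.02 over all named genes. In limma's moderated test of the ratio against 0, adjusted by Benjamini-Hochberg over all 13506 named genes, 7 of the 129 passed an adjusted p of 0.05, which is 5.43%. The background was 391 of all named genes, or 2.9%. The 6 on the positive side were the AMPA receptor subunit Gria1, the inward rectifier Kcnj8, the voltage-gated potassium channel Kcnd2, the nicotinic subunit Chrna4, the GABA-A subunit Gabrg3 and the potassium channel beta subunit Kcnab1, where the background on that side was 2.12%. The 1 on the negative side was the nicotinic subunit Chrnb1, against a background of 0.777%. At an unadjusted p under 0.05, 35 of the 129 passed (27.1%), near the background of 27.5%.

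A second count, of genes at least 1 log2 unit from 0 on both arrays with the same sign, rested on the values alone and not on their estimated spread. It held 6 channel genes on the positive side, against a background of 1.69%, and 1 on the negative side, against 0.578%. These were Gria1, Kcnj8, Kcnd2, Chrna4, Kcnab1, Kcnj12 and Chrnb1. Gabrg3 fell short of 1 unit on array 1, and Kcnj12 missed the adjusted threshold. Signs were the same on both arrays for fewer channel genes than for genes at large. Positive on both arrays were 32 of 129, or 24.8% (background 33.9%), negative on both were 52, or 40.3% (background 38.2%), and of opposite sign 45, or 34.9% (background 27.8%).

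**Figure D1:**
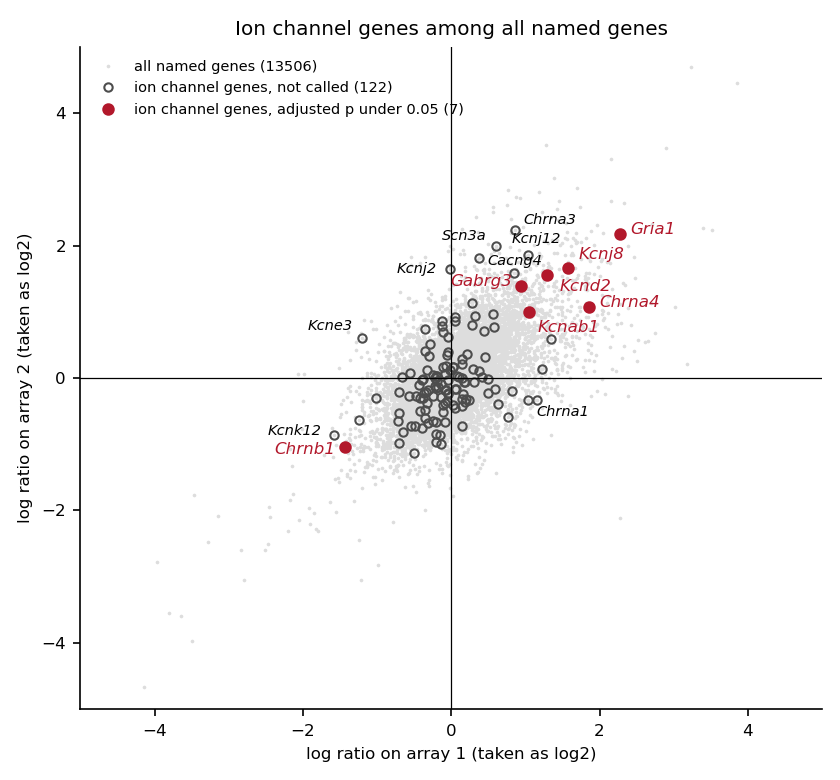
Each point is a gene, with its log ratio (taken as log2) on array 1 along the x axis and on array 2 along the y axis. Grey dots are all 13506 named genes, open circles the 122 channel genes that did not pass and filled red circles the 7 that passed an adjusted p of 0.05, of which Gria1 at 2.27 and 2.18 lies farthest out and Chrnb1 at -1.43 and -1.05 is alone on the negative side.

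Ratios of channel genes varied more, both among themselves and between the arrays, than those of all named genes. The SD across the 129 genes was 0.59 on array 1 and 0.71 on array 2, against 0.51 and 0.55 across all named genes. The arrays differed by more than 1 log2 unit for 12 of the 129 (9.3%), against 5.01% of all named genes. Widest apart was Kcne3, an auxiliary subunit of epithelial potassium channels, with -1.2 on array 1 and 0.60 on array 2. Next came Kcnj2, a strong inward rectifier, with -0.01 and 1.64, and Kcnk9, an acid-sensitive leak channel, with 1.15 and -0.33. Across the 129 genes, which share 2 arrays and are no independent replicates, Pearson's r between array 1 and array 2 was 0.584 and Spearman's rho 0.496, against 0.615 and 0.582 across all named genes.

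Glutamate receptors are tetramers that open to glutamate and fall into AMPA, kainate, NMDA and delta types. Gria1, an AMPA receptor subunit, had 2.27 on array 1 and 2.18 on array 2. Both values lay far on the positive side and were nearly equal. The mean was 2.22 ± 0.06 (SD, n = 2), with a 95% interval of 1.84 to 2.61 and a limma adjusted p of 0.0235, and it would be a 4.67-fold ratio at base 2. Ranked by mean ratio, Gria1 was number 12 of the 13506 named genes from the positive end.

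The other AMPA subunits did not share this ratio. Gria3 had 0.17 and -0.06, and Gria4 had -0.24 and -0.65. Gria2, whose edited form keeps AMPA receptors from passing calcium, had a value on array 2 only, at 0.31. Among kainate subunits, Grik5 had -0.20 and -0.84, Grik3 -0.21 and -0.67 and Grik4 -0.11 and -0.52, while Grik2 had opposite signs at -0.29 and 0.51. Thus 3 of the 4 measured kainate subunits were negative on both arrays (75%, background 38.2%), each with a larger size on array 2. In limma 0 of the 4 passed over all genes and 0 passed at an unadjusted p of 0.05.

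No NMDA receptor subunit passed in limma. Grin2b had 0.15 and 0.28, Grin2a 0.03 and 0.17, Grin2d -0.34 and -0.20, and Grin3a -0.40 and -0.02. Grin3b, a subunit that lowers calcium passage, had -0.13 and 0.78. The delta receptor Grid1 had -0.35 and 0.74, signs that disagree. Both arrays were positive for 3 (23.1%, background 33.9%) and negative for 6 (46.2%, background 38.2%) of the 13 measured glutamate receptor genes. Their array medians were -0.20 and -0.02, while the gene means had a median of 0.06. Limma called Gria1 alone, and it was also the only 1 of the 13 with an unadjusted p under 0.05.

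Auxiliary proteins of AMPA receptors, the TARPs, carry symbols of the calcium channel gamma family. Cacng4 had 0.38 and 1.81, on the same side as Gria1, with a mean of 1.09 ± 1.01 (SD, n = 2) and a limma adjusted p of 0.138. Cacng8 had -0.65 and -0.82 and Cacng5 had -0.72 and -0.64, on the opposite side on both arrays. Their means were -0.73 ± 0.12 and -0.68 ± 0.05, with limma adjusted p of 0.0765 and 0.0819. Cacng2, known as stargazin, had -0.04 and 0.62. Members of this small family thus lay on both sides, and none of them passed.

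Nicotinic acetylcholine receptors are pentamers of alpha and other subunits that pass cations when acetylcholine binds. The muscle type is made of the products of Chrna1, Chrnb1, Chrnd and Chrng or Chrne, and the neuronal types combine other alpha subunits with beta subunits. This family held calls on both sides. Chrnb1 had -1.43 on array 1 and -1.05 on array 2, with a mean of -1.24 ± 0.27 (SD, n = 2), a 95% interval of -1.68 to -0.80 and a limma adjusted p of 0.0438. Chrnd, the delta subunit, lay on the same side with -0.70 and -0.99, a mean of -0.84 ± 0.20 and an adjusted p of 0.0654. The gamma subunit Chrng, typical of fetal muscle, had -0.25 and -0.28. The alpha subunit of the same receptor did not follow, since Chrna1 had 1.04 and -0.33. The adult epsilon subunit Chrne had a value on array 2 only, at 0.31.

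Among neuronal subunits, Chrna4 had 1.86 and 1.08, both far on the positive side. Its mean was 1.47 ± 0.55 (SD, n = 2), with a 95% interval of 0.88 to 2.06 and a limma adjusted p of 0.0488, just inside the threshold. Its usual partner in brain, Chrnb2, had 0.24 and -0.34. Chrna3, the alpha subunit of autonomic ganglia, had 0.86 and 2.23, and its mean of 1.55 ± 0.97 was higher than that of Chrna4 but less even, with an adjusted p of 0.0808. Its partner Chrnb4 had -0.14 and -0.28. Chrna7, which forms receptors on its own and is made by macrophages too, had -0.21 and -0.15, and Chrna2 had -0.22 and -0.11. Both arrays were positive for 2 (20%, background 33.9%) and negative for 6 (60%, background 38.2%) of the 10 measured nicotinic genes. The median of the gene means was -0.17, with -0.28 on array 2 alone.

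The promoter windows of Chrna4 and Chrnb1 are shown because these subunits of 1 receptor family lay on opposite sides. They are taken from RefSeq (GRCm38.p6), run from 250 bases before to 50 bases after the gene's start, and are written 5′ to 3′ on the gene's strand. Chrna4 is at chr2:181039128-181039427 and Chrnb1 at chr11:69795888-69796187, both on the minus strand. Capitals mark matches to searched motifs.
Chrna4: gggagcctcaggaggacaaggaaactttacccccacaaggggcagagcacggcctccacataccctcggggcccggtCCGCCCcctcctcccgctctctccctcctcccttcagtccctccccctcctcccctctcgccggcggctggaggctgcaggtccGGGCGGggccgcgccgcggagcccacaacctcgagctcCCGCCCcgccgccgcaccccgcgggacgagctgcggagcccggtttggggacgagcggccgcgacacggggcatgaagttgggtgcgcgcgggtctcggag
Chrnb1: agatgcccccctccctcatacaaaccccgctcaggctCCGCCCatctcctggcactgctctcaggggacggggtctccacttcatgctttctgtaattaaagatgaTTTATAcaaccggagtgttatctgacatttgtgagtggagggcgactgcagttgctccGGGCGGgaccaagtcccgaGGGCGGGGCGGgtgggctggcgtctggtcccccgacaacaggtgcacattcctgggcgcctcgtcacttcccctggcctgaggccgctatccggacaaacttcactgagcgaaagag
The motifs were the GC box GGGCGG, the TATA box TATAAA, the hypoxia-responsive cores ACGTG and GCGTG, the E-boxes CACGTG and CAGCTG, and the RE1 half-site motifs CAGCACC and GGACAG, each on both strands, where CACGTG contains ACGTG. The window of Chrna4 held 3 GC boxes, and that of Chrnb1 held 4 GC boxes and 1 TATA box on the opposite strand. Of 27025 genes in the RefSeq promoter table, each taken with its most upstream window, 35.9% hold a GC box, 14.2% TATAAA, 19.6% ACGTG, 32.5% GCGTG, 7.24% CACGTG, 16.1% CAGCTG, 7.1% CAGCACC and 22.1% GGACAG. Of the 10826 named genes measured on both arrays with a window, 57.5% hold a GC box, 9.92% TATAAA, 23.65% ACGTG and 46.7% GCGTG. Among these 10826 genes, 9.44% hold CACGTG, 15.3% CAGCTG, 7.6% CAGCACC and 23.1% GGACAG.

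GABA-A receptors are chloride channels opened by the inhibitory transmitter GABA. Gabrg3, a gamma subunit, had 0.94 on array 1 and 1.40 on array 2, both positive. The mean was 1.17 ± 0.32 (SD, n = 2), with a 95% interval of 0.70 to 1.63 and a limma adjusted p of 0.0484. Its probe carries an older clone name in the platform annotation and was linked to Gabrg3 through a unique RefSeq synonym. The beta subunit Gabrb2 had 0.28 and 1.13, and the rho subunit Gabrr1, best known from retina, had 0.57 and 0.77. On the other side were the alpha subunit Gabra5, with -0.71 and -0.20, and the beta subunit Gabrb1, with -0.14 and -0.99. Gabra6 had 0.49 and -0.01 and Gabrd 0.18 and -0.37, without a common sign. Of 15 GABA-A genes with a probe, 7 were measured on both arrays, so 8 are missing here.

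**Figure D2:**
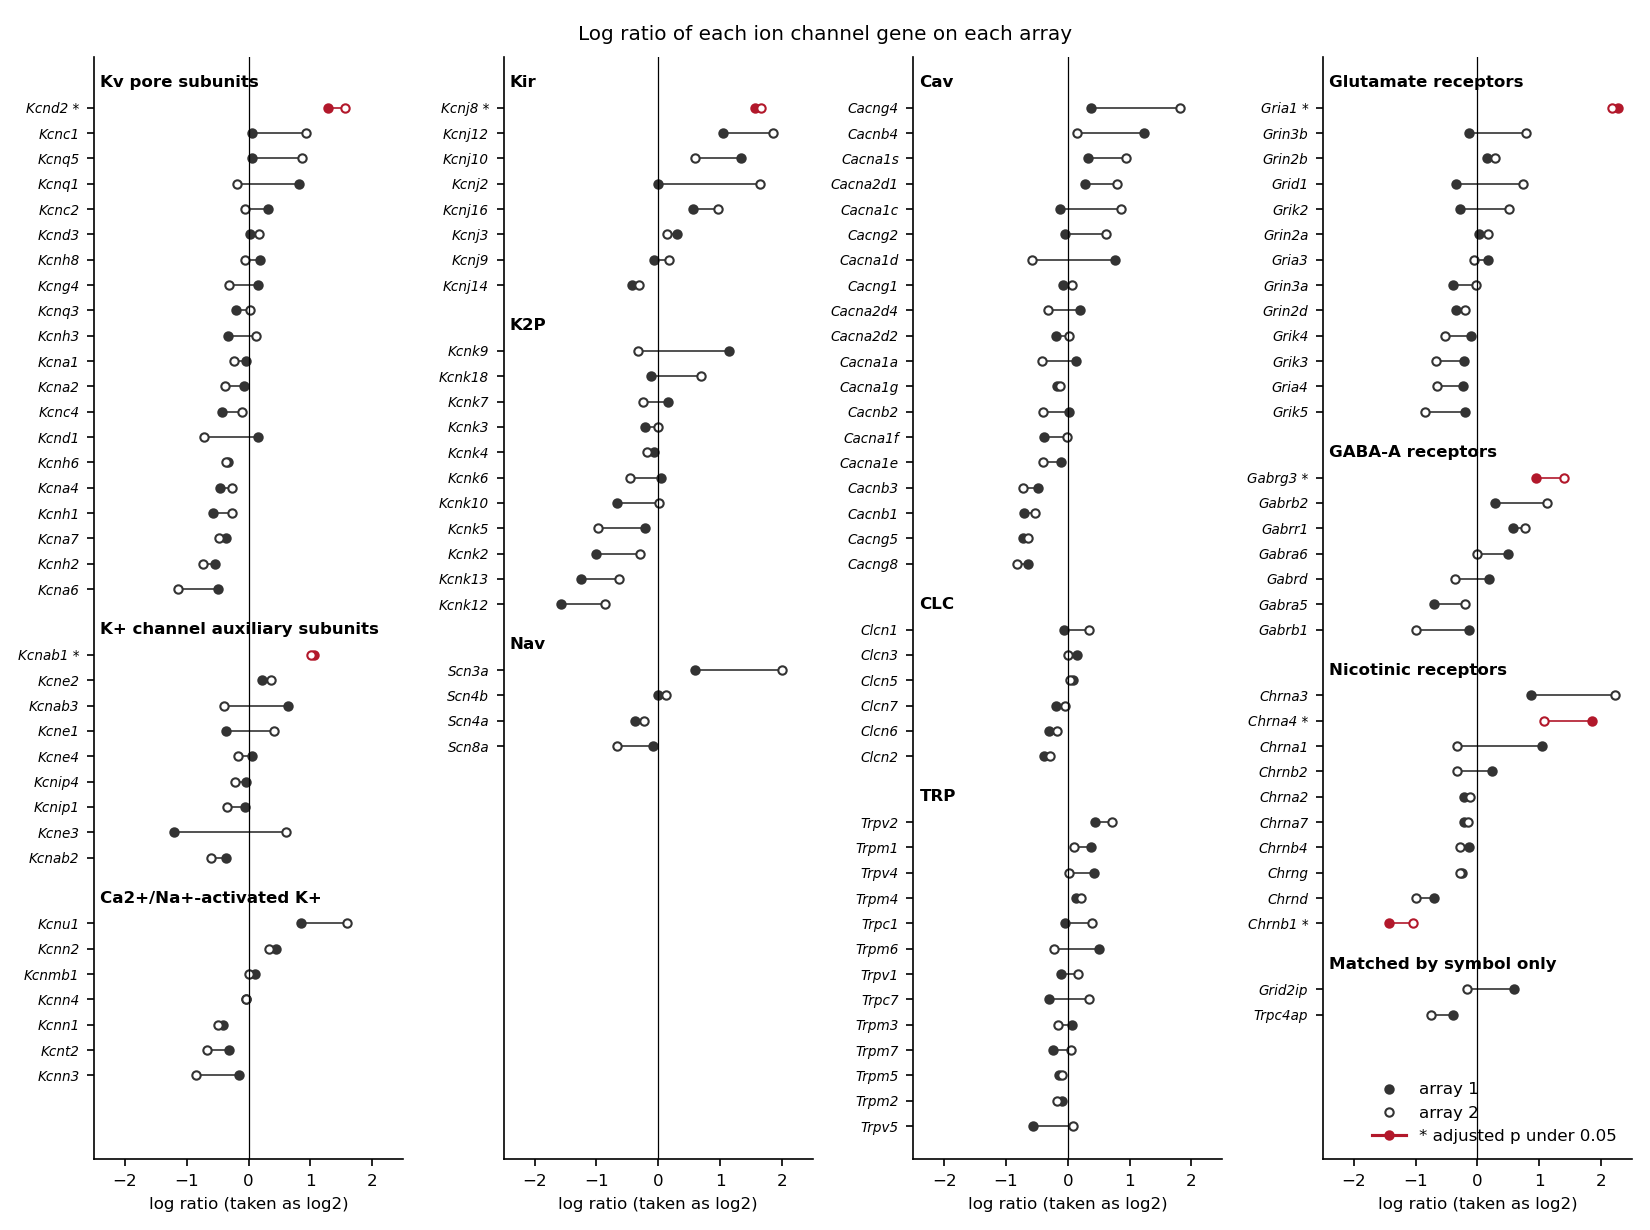
Log ratio (taken as log2, x axis) of each of the 129 genes, with array 1 as a filled and array 2 as an open circle joined by a line, grouped by family and ordered by mean. Red symbols with an asterisk are the 7 genes past an adjusted p of 0.05, and the long lines of genes such as Kcne3, at -1.2 and 0.60, show where the arrays disagreed.

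Potassium channels set the resting potential and end electrical activity, and they made up 55 of the 129 genes. Of the 55, 14 lay on the positive side on both arrays (25.5%, background 33.9%) and 23 on the negative side (41.8%, background 38.2%). In limma 3 passed, all positive, where the background on that side was 2.12%. Inward rectifiers, the Kir family, conduct near rest and hold the membrane at a negative potential. Kcnj8, the pore of the vascular ATP-sensitive potassium channel, had 1.57 on array 1 and 1.67 on array 2. The 2 values were close together, with a mean of 1.62 ± 0.07 (SD, n = 2), a 95% interval of 1.23 to 2.01 and a limma adjusted p of 0.0282, or 3.07-fold at base 2. Of the sulphonylurea receptors that complete such channels, chosen after the values were seen, Abcc8 had -0.04 and -0.14. Abcc9, the other receptor sought, was not among the genes measured on both arrays, so its ratio was not read.

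Kcnj12, a strong inward rectifier of muscle, had 1.04 and 1.85, with a mean of 1.45 ± 0.57 (SD, n = 2). Its adjusted p in limma's test, 0.0514, lay just outside the threshold. Kcnj10, a channel of glia, gut and kidney, had 1.34 and 0.59, and Kcnj16, with which it can assemble, had 0.56 and 0.96. Neither passed, with limma adjusted p of 0.0877 and 0.0866. The G protein-gated channels had small ratios, with 0.30 and 0.14 for Kcnj3 and -0.07 and 0.18 for Kcnj9. Kcnj14 was the 1 member negative on both arrays, at -0.42 and -0.30. In all, 5 of the 8 measured Kir genes (62.5%) were positive on both arrays, against 33.9% of all named genes. Their median was 0.79 for the mean of both arrays, 0.43 on array 1 and 0.78 on array 2. Kcnj2, a strong inward rectifier of heart and muscle, had -0.01 and 1.64, so the arrays differ widely for it.

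Two-pore-domain channels (K2P) carry the leak current that also sets the resting potential. None of the 11 measured genes was positive on both arrays (background 33.9%), and 6 were negative on both (54.5%, background 38.2%). The array medians were -0.21 and -0.30. Kcnk12 had -1.58 and -0.86 and its close relative Kcnk13, a channel known from microglia, had -1.25 and -0.64. Their means were -1.22 ± 0.51 and -0.95 ± 0.43 (SD, n = 2), with limma adjusted p of 0.0593 and 0.0785. The mechanosensitive channel Kcnk2 had -1.01 and -0.30, and the alkali-activated Kcnk5 had -0.21 and -0.97. In limma 0 of the 11 passed over all genes, and 4 passed at an unadjusted p of 0.05 (36.4%, background 27.5%). A test of Kir against K2P genes was not made, since members of a family are not replicates.

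Voltage-gated potassium channels (Kv) open on depolarisation and repolarise the cell. Kcnd2, a pore subunit of the fast-inactivating A-type current, had 1.29 on array 1 and 1.56 on array 2. Its mean was 1.42 ± 0.19 (SD, n = 2), with a 95% interval of 1.01 to 1.84 and a limma adjusted p of 0.0339, or 2.68-fold at base 2. Its relatives differed, with 0.02 and 0.17 for Kcnd3 and 0.15 and -0.73 for Kcnd1. Proteins that join A-type channels were split. Dpp6, a membrane protein that speeds their gating, had 1.05 and 1.2, a mean of 1.12 ± 0.10 and a limma adjusted p of 0.0438. The related Dpp10 had -0.25 and -0.42, and the calcium-binding Kcnip1 and Kcnip4 had -0.06 and -0.35, and -0.04 and -0.22. Dpp6 and Dpp10 come from a list of channel partners.

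The promoter windows of Kcnj8 and Kcnd2, the called potassium channel pore genes, are shown in the same way, from RefSeq (GRCm38.p6). Kcnj8 is at chr6:142571565-142571864 on the minus strand and Kcnd2 at chr6:21215096-21215395 on the plus strand.
Kcnj8: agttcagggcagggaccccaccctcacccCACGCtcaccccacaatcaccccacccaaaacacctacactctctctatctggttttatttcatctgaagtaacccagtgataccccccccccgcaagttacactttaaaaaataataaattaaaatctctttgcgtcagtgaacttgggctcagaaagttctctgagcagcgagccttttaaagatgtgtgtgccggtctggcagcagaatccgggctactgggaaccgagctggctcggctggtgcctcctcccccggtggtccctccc
Kcnd2: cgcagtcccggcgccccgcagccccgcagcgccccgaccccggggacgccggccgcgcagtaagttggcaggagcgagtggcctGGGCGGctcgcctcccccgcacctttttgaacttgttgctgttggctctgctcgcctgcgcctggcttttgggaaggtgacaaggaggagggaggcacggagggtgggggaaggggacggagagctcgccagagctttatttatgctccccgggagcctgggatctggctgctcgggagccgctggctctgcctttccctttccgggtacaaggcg
Kcnj8 had no GC box and 1 match to the hypoxia-responsive core GCGTG on the opposite strand, while Kcnd2 had 1 GC box. RefSeq windows were found for 100 of the 129 genes (77.5%), so a comparison of base composition or motifs over the whole set was void, because fewer than 80% had one.

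Among the remaining Kv pore genes, more lay on the negative than on the positive side on both arrays. All 5 measured Kcna genes, from a family of delayed rectifier and A-type channels, were negative on both arrays, against 38.2% of all named genes. In limma 0 of the 5 passed over all genes. Kcna6 had -0.50 and -1.14, Kcna7 -0.36 and -0.48, Kcna4 -0.47 and -0.26, Kcna2 -0.08 and -0.38 and Kcna1 -0.05 and -0.24. Of the ether-a-go-go family, Kcnh2, the cardiac channel known as hERG, had -0.54 and -0.73, Kcnh1 -0.57 and -0.26 and Kcnh6 -0.33 and -0.37. The other measured members had opposite signs, with -0.33 and 0.12 for Kcnh3 and 0.18 and -0.06 for Kcnh8. The widest of these were Kcna6, at -0.82 ± 0.45 (SD, n = 2), and Kcnh2, at -0.64 ± 0.14, with limma adjusted p of 0.0977 and 0.0936. Kcnq1, the epithelial and cardiac channel, had 0.82 and -0.19, and Kcnq5 had 0.05 and 0.86. Over the 20 measured Kv pore genes, 4 lay on the positive side on both arrays (20%, background 33.9%) and 9 on the negative side (45%, background 38.2%). The array medians were -0.07 and -0.22. Limma called Kcnd2 alone, with 4 genes at an unadjusted p under 0.05 (20%, background 27.5%).

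Auxiliary potassium channel subunits included 1 further call. Kcnab1, a cytoplasmic beta subunit that binds Kcna channels and speeds their inactivation, had 1.05 on array 1 and 1.00 on array 2. The SD over the arrays was 0.03, and the mean of 1.03 had a 95% interval of 0.64 to 1.41 and a limma adjusted p of 0.0474 (n = 2). The paralog Kcnab2 lay on the other side with -0.36 and -0.60, and Kcnab3 had 0.63 and -0.40. Of the Kcne subunits, Kcne2 was positive on both arrays at 0.21 and 0.37, and Kcne1, Kcne3 and Kcne4 had opposite signs. The 5 measured Kcna genes, from the family that Kcnab1 binds, were negative on both arrays, and Kcna3 and Kcna5 had a value on neither.

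Genes of the calcium- and sodium-activated potassium channel families, grouped here by symbol, were divided. Kcnu1, a channel of sperm, is placed here by relation and not by such gating. It had 0.84 and 1.59, with a mean of 1.22 ± 0.53 (SD, n = 2) and a limma adjusted p of 0.0614. The small-conductance channels Kcnn1 and Kcnn3 had -0.42 and -0.50, and -0.15 and -0.86, while Kcnn2 had 0.45 and 0.32. Kcnn4, the intermediate-conductance channel of lymphocytes and many epithelia, had -0.04 on both arrays. Kcnt2 had -0.31 and -0.67. In limma 0 of these 7 genes passed over all genes, and 3 passed at an unadjusted p of 0.05 (42.9%, background 27.5%).

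Voltage-gated calcium channels couple depolarisation to calcium entry and consist of an alpha1 pore with beta, alpha2delta and gamma subunits. Of 19 measured genes, 4 lay on the positive side on both arrays (21.1%, background 33.9%) and 7 on the negative side (36.8%, background 38.2%). In limma 0 passed over all genes, and 7 passed at an unadjusted p of 0.05 (36.8%, background 27.5%). Among the pores, Cacna1s, the skeletal muscle L-type channel, had 0.32 and 0.94, and the only other values beyond 0.5 on an array belonged to Cacna1c, at -0.13 and 0.86, and Cacna1d, at 0.77 and -0.58. The beta subunits, which bring the pore to the membrane, were split, with Cacnb1 at -0.71 and -0.53 and Cacnb3 at -0.49 and -0.73 against Cacnb4 at 1.23 and 0.14. Cacnb1 and Cacnb3 had means of -0.62 ± 0.13 and -0.61 ± 0.17 (SD, n = 2) with limma adjusted p of 0.0974 and 0.102. The alpha2delta subunit Cacna2d1, which binds gabapentin, had 0.28 and 0.80. Cacng1, the gamma subunit of skeletal muscle, had -0.08 and 0.06.

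Voltage-gated sodium channels drive the upstroke of the action potential. Only 4 of 9 genes with a probe were measured on both arrays. Scn3a, a channel of developing brain, had 0.60 and 2.00, with a mean of 1.30 ± 0.99 (SD, n = 2) and a limma adjusted p of 0.105. Scn4a, of skeletal muscle, had -0.37 and -0.23, Scn8a -0.08 and -0.66, and the beta subunit Scn4b -0.01 and 0.13. In limma 0 of the 4 passed over all genes, and 1 passed at an unadjusted p of 0.05 (25%, background 27.5%).

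The families whose ratios stayed closest to 0 were the CLC proteins and the TRP channels. CLC proteins carry chloride across the cell surface or exchange it for protons in endosomes and lysosomes. The 6 measured members ran from -0.34 for the surface channel Clcn2, with -0.38 and -0.30, to 0.14 for the muscle channel Clcn1, with -0.06 and 0.34. Clcn6 had -0.31 and -0.17, while in limma 0 of the 6 passed over all genes and 0 passed at an unadjusted p of 0.05. TRP channels pass cations in response to heat, chemicals, stretch or receptor signals. Trpv2, also made by macrophages, had 0.44 and 0.71 and was the 1 TRP gene with an unadjusted p under 0.05, with a limma adjusted p of 0.114. The magnesium-permeable Trpm7 had -0.24 and 0.05, the calcium-activated Trpm4 0.14 and 0.22, and the heat sensor Trpv1 -0.11 and 0.17. Of 13 TRP genes, 7 had opposite signs on the 2 arrays (53.8%, background 27.8%), and limma called 0. The median size of the mean was 0.13 for CLC and 0.14 for TRP genes, against 0.29 for all 129 channel genes and 0.27 for all named genes.

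**Figure D3:**
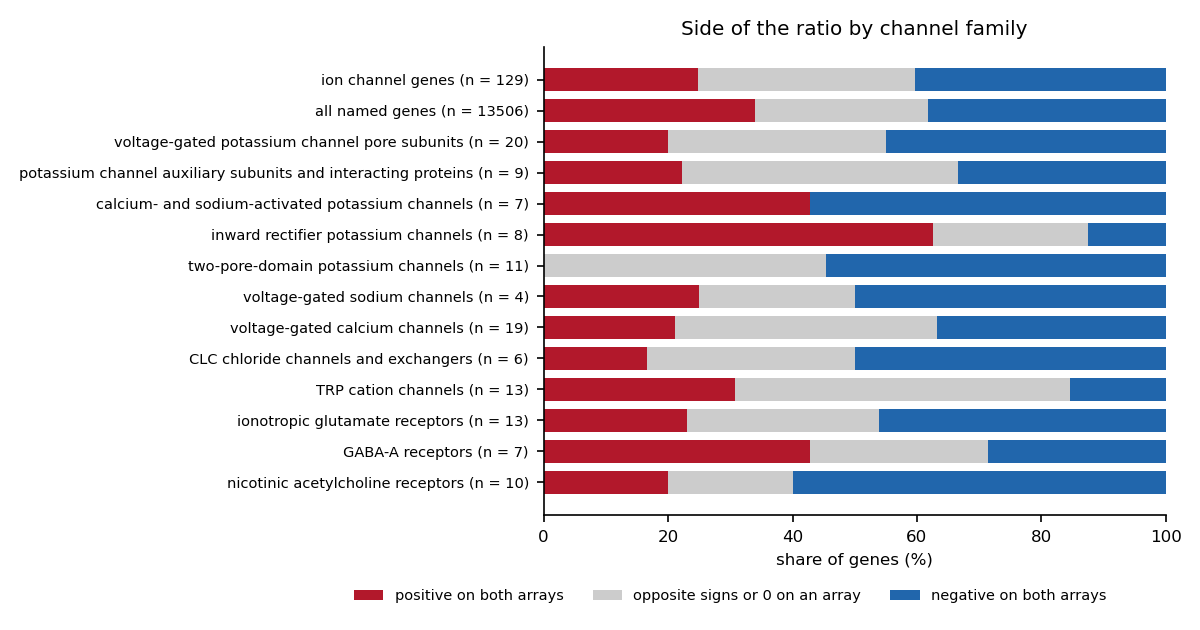
Share of genes (%, x axis) that were positive on both arrays (red), of opposite sign or 0 on an array (grey) or negative on both (blue), for all 129 channel genes, all 13506 named genes and 12 families, with the number of genes n. Of 8 inward rectifier genes 62.5% were positive on both arrays, and of 11 two-pore-domain genes none was.

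The symbol rule also took 2 genes that are not channel subunits. Trpc4ap, a protein named for its binding to a TRP channel, had -0.39 and -0.75. Grid2ip, a scaffold that binds a delta glutamate receptor, had 0.59 and -0.16. Neither passed.

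Other channels and channel partners were taken from separate lists. Among 52 measured channel genes outside the symbol rule, 21 lay on the positive side on both arrays (40.4%, background 33.9%). On the negative side on both arrays lay 16 (30.8%, background 38.2%). In limma 2 passed, both positive, against a background of 2.9%. Their median was 0.005 on array 1 and 0.12 on array 2. Clic6, an intracellular chloride channel protein, had 2.02 and 1.77, a mean of 1.89 ± 0.18 (SD, n = 2) and a limma adjusted p of 0.0282. Glra4, a glycine receptor subunit, had 1.00 and 0.93 with an adjusted p of 0.0488, and the proton-gated Asic2 had 0.84 and 0.93 with an adjusted p of 0.0554. Among 35 measured scaffold and accessory genes, each side held 11 that kept it on both arrays (31.4%). The background was 33.9% on the positive and 38.2% on the negative side. The 2 called were Dpp6 and Lrp4, where 2.9% of all named genes were called.

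Lrp4 is a receptor for agrin and Rapsn clusters the muscle nicotinic receptor at the neuromuscular junction, where Chrnb1 serves. Lrp4 had 1.06 and 1.66, a mean of 1.36 ± 0.43 (SD, n = 2) and a limma adjusted p of 0.0475, and Rapsn had 0.74 and 1.81 with an adjusted p of 0.0813. Both lay on the side opposite to Chrnb1 and Chrnd. Agrn, agrin itself, had -0.40 and -0.45, the kinase Musk -0.50 and 0.13 and its activator Dok7 0.41 and 0.39. Genes of the postsynaptic muscle membrane thus did not share a side.

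Markers of cell types that carry many of these channels, or that surround the tumours, moved on both sides. Of 14 neuron markers, 6 were positive (42.9%, background 33.9%) and 2 negative (14.3%, background 38.2%) on both arrays. Map2 was called at 1.19 ± 0.13 (SD, n = 2) and Tubb3 at -1.07 ± 0.18, adjusted p 0.0424 and 0.0475 in limma's test. Of 12 skeletal muscle markers, 8 were positive and 1 negative on both arrays, against 33.9% and 38.2% of all named genes, and Actn3 was called at 1.27 ± 0.28. Their median was 0.62 on array 1 and 0.15 on array 2. The 9 endothelial markers had a median of 0.48 and 7 were positive on both arrays (77.8%, background 33.9%). Of these 9, Flt1 was called at 1.25 ± 0.36 and Robo4 at 1.04 ± 0.21, where 2.9% of all named genes were called. Smooth muscle (9 genes, median -0.26), glial (6, 0.10), endocrine (7, -0.18), hepatocyte (12, -0.02), colon epithelium (11, 0.10), macrophage (7, 0.06) and lymphocyte markers (10, 0.17) had medians between -0.26 and 0.17. Of these, the medians of the 2 arrays had opposite signs for glial (-0.24 and 0.21), endocrine (0.01 and -0.05), colon epithelium (-0.03 and 0.06), macrophage (-0.19 and 0.30) and lymphocyte markers (0.48 and -0.04). Limma called the smooth muscle gene Cnn1 among them, at 1.15 ± 0.24 (SD, n = 2), and the macrophage gene Cd14, at -1.20 ± 0.33. Their adjusted p was 0.0472 and 0.0475 in limma's test, and each lay on the side opposite to the median of its list. In the other 5 lists limma called 0. At an unadjusted p under 0.05 in limma's test were 3 glial (50%), 1 endocrine (14.3%), 5 hepatocyte (41.7%), 4 colon epithelium (36.4%) and 4 lymphocyte genes (40%). The share was 55.6% for endothelial, 44.4% for smooth muscle, 42.9% for macrophage, 41.7% for skeletal muscle and 35.7% for neuron markers. The background was 27.5%. The part of these cell types in the channel ratios was not tested, and their levels are unknown because the file holds ratios.

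The 7 calls differed in how firmly they held. Over 8 alternatives to the processing, Gria1 stayed called in 6, Kcnj8 in 5, Kcnd2 in 4, Chrnb1 in 3, Kcnab1 in 2, and Gabrg3 and Chrna4 in 1 each. After the arrays were scaled to equal spread, Gria1 alone passed, with a limma adjusted p of 0.0424, and after quantile normalization none of the 7 did, with adjusted p from 0.0643 for Gria1 and Kcnj8 to 0.0856 for Chrna4. Only centring, scaling and quantile normalization alter the ratio of a gene read by 1 probe, and the other alternatives leave its mean unchanged by design. Under those that alter it, the means of the 7 moved little, for example for Gria1 from 2.21 to 2.25. A sign-flip test on 2 arrays has a smallest two-sided p of 0.5, so limma's test rests on the spread that limma borrows from all genes.

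**Figure D4:**
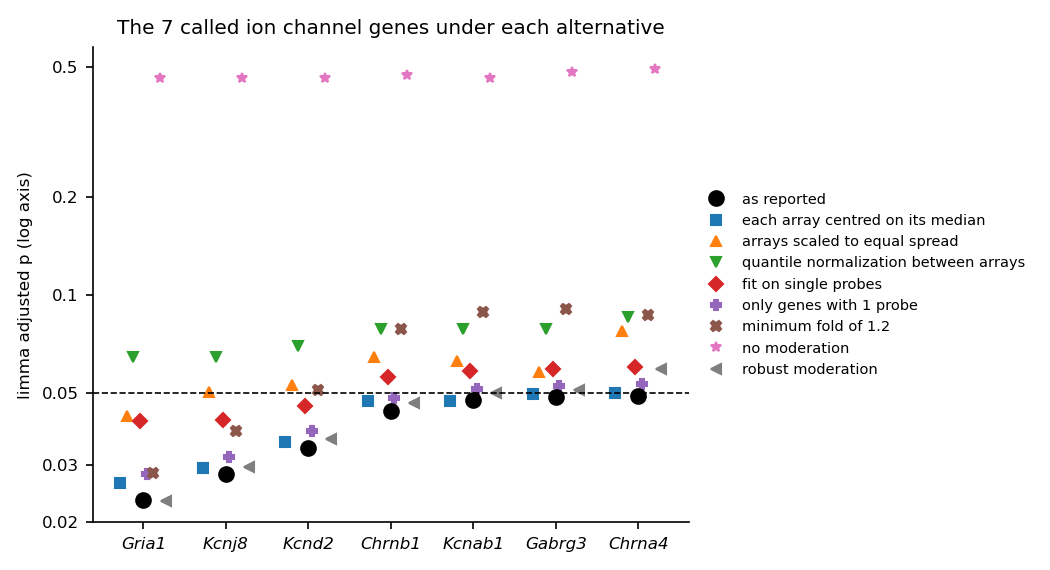
Adjusted p from limma (y axis, log axis) for each of the 7 called channel genes (x axis), as reported (black) and under each of 8 alternatives (coloured symbols), with the threshold of 0.05 as a dashed line. Gria1 lies below the line in 6 alternatives, Gabrg3 and Chrna4 in 1, and the fit without moderation lies above 0.4 for every gene.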

How the data were processed

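The authors deposited 1 log ratio per probe and array, taken here as log2. The log base, the numerator, the spot filter and the normalization are given by no source used here. Whole hundredths made up 100% of the values of array 1 and 0.104% of those of array 2. The 2 arrays were thus deposited at unlike precision, and whether they were also processed differently is not given. Each array's deposited values centre on 0 (medians of 0 and -5.53e-06), and base 2 is an assumption that the values do not settle. Both arrays had a value for 18837 of 23473 probes. Symbols came from the platform annotation. Of the 23473 probes, 12622 had a symbol current in RefSeq (GRCm38.p6), 3947 had one updated through a unique synonym and 62 had one kept as given. The other 6842 probes had no symbol and are not among the named genes. No probe coordinates are given, since their build is unknown. Probes were averaged per gene.

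The test of each ratio against 0 was limma's (version 3.58.1, R 4.3.3, an intercept fit with eBayes moderation), which has 1 residual and 4.06 prior degrees of freedom, and Benjamini-Hochberg adjustment over 13506 genes. Errors are the SD over 2 arrays. Precision cannot be read from depth, because arrays give none. The script was tested on simulated data. The naming rule took all called genes, their paralogs, and up to 4 per family and side with the largest value on the weaker array. It also took up to 3 per comparison list. Not every gene that the rule took is given in the text. Trpm1, Clcn5 and Kcnmb1 are examples left out, and several marker lists have no gene named. Any channel gene given outside the rule was picked with its values in view. The channel genes and the comparison lists were chosen with earlier results of these data known. Figures were drawn with matplotlib 3.10.9.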

Additional observations from a re-analysis of the deposited data

How the results depend on the processing

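Under the 8 alternatives that give a test, the count of called channel genes was 7 after centring each array on its median, 1 with the arrays brought to equal spread, 0 under quantile normalization (limma, 34 at an unadjusted p under 0.05), 3 in the fit on single probes, 4 with only genes of 1 probe, 2 with a minimum fold of 1.2, 5 with robust moderation and 0 without moderation (7 at an unadjusted p under 0.05). The count over all named genes, 391, became 358, 51, 4, 161, 255, 108, 267 and 0 (1450 at an unadjusted p under 0.05) in the same order, so the count of channel genes fell together with the background. At least 1 log2 unit was reached by 15 channel genes on array 1 and by 15 on array 2, whatever the other array showed. Each of these counts includes the 7 that reached it on both with the same sign (5.43%, background 2.27%). The share of all named genes that reached it on a single array was not computed. Their median, -0.06, was -0.0345 after centring and lay between -0.0898 and -0.07 when 1 array was left out. No paired analysis was possible because each array already is 1 pair of a metastasis and a primary tumour and there is no second group. The design with 2 arrays and 1 dye orientation limits every call, and the cause of the lost calls was not tested.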

Other observations

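Channel genes without a value on both arrays numbered 54, of which 34 had none on either array, 7 had one on array 1 only and 13 on array 2 only. Of these 20 single values, 18 were positive and 2 negative, with a median of 0.71. Over all named genes with a value on 1 array only, 1265 of 1489 were positive, or 85%, with a median of 0.81. The highest were Chrna6, a nicotinic subunit of dopamine neurons, at 2.06 on array 2, Gabrp, a GABA-A subunit of epithelia, at 1.73 on array 1, and the sodium channel Scn1a, also at 1.73 on array 1. Grin2c, an NMDA subunit, had 1.57 on array 1 and Trpv3, a channel of skin, 1.44 on array 2. The lowest were Kcnt1 at -0.15 and Trpc4 at -0.14, both on array 2. These values have no replicate and entered no test, and why a spot lacked a value is not given in the sources used here.

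Many channel genes lie beside each other in the genome, often as paralogs. In the RefSeq table (GRCm38.p6), 34 pairs of measured channel genes lay within 1 Mb of each other. In 8 pairs both genes were on the same side on both arrays, in 12 they were on opposite sides, and in 14 a gene had mixed signs. All 8 same-side pairs were negative, the side of 40.3% of the 129 genes, against 24.8% on the positive side. Gabrg3 and its neighbour Gabra5 were opposite, with means of 1.17 and -0.46, as were Chrna3 and Chrnb4, at 1.55 and -0.21, and Cacng4 and Cacng5, at 1.09 and -0.68. On the same side lay Chrnd and Chrng, at -0.84 and -0.26, Kcna6 and Kcna1, at -0.82 and -0.15, and Kcnh6 and Scn4a, at -0.35 and -0.30. Some pairs share a gene, as among Grin2d, Kcna7, Kcnc1, Kcnj14 and Trpm4 on chromosome 7. Pairs are therefore not independent, and no test was made.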
